A study of Mus musculus with 8 samples.

Results

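The 10 genes described here act in hepatic fatty acid synthesis and its control, and were measured in the livers of miR-93 knockout (KO) and wild-type (WT) mice. They are the enzyme genes Acly, Acss2, Me1, Acaca, Acacb and Fasn, the accessory genes Thrsp and Pnpla3, and the regulators Srebf1 and Mlxipl. They were chosen by symbol, with earlier results of these data known, and make up 10 of 56748 gene identifiers in the count table. Of the 10, 9 had enough counts to be tested. RNA-seq was done on whole liver from 4 KO and 4 WT samples. Both genotypes had a high fat-high fructose diet, a diet used to produce metabolic dysfunction-associated steatotic liver disease (MASLD), and are labelled 16 weeks. The sources used here do not give the strain, sex or age of the mice, the cells in which miR-93 was deleted, or whether each library came from its own animal, so the p-values below measure the spread between these libraries.

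Liver cells make fatty acids from surplus carbohydrate. Citrate exported from mitochondria is split into acetyl-CoA, acetyl-CoA is carboxylated to malonyl-CoA, and fatty acid synthase joins these units into palmitate, consuming NADPH. The transcription factor SREBP-1c, encoded by Srebf1, carries much of the insulin signal to these genes, and ChREBP, encoded by Mlxipl, carries the carbohydrate signal. Fructose-rich diets are known to engage both. The series title names hepatic miR-93 and its suppression of SIRT1, and the design text asks which genes differ between KO and WT.

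MicroRNAs pair with messenger RNAs mainly through their seed, bases 2 to 8, so the sequence of the deleted miRNA is given with the seed in capitals. It is taken from RefSeq and lies at chr5:138165574-138165596 on the minus strand of GRCm38.p6.
mmu-miR-93-5p: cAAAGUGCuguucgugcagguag
The matching site in a messenger RNA reads GCACTTT in DNA letters. It was found in 0 of the 10 genes' longest annotated 3′ UTRs, which are 121 to 2008 bases long. Of the 11579 tested genes with an annotated 3′ UTR, 1690 (14.6%) held it. A match is only a run of letters, and its absence says nothing about other routes by which miR-93 could act.

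The libraries differed between genotypes in more than these genes. Total counts were 9187279 to 10966019 in KO and 5085860 to 7451026 in WT. Mitochondrial genes took 11.02% ± 3.06 of counts in KO and 41.6% ± 24.4 in WT (SD, n = 4 each; exact permutation test, two-sided p = 0.0286, the smallest that 70 assignments allow). WT replicate 4 stood apart, with 77.8% mitochondrial counts and 1131446 nuclear counts, against 4581983 to 5557023 in the other 3 WT libraries. Library composition and genotype therefore cannot be told apart here. The Mir93 locus had 0 counts in all 8 libraries, so the KO label could not be checked from the counts. Levels are CPM, counts scaled to a common library total, after TMM scaling, which sets the libraries to a common level over the bulk of genes. A gene was called changed at an adjusted p below 0.05 (edgeR quasi-likelihood test, Benjamini-Hochberg over 13204 genes), and the median log2 fold change of all tested genes was -0.01.

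Of the 9 tested genes, 8 were lower in KO livers, 0 were higher and Me1 did not pass. Over all tested genes, 10.7% were lower and 10.4% higher. Because the genes were chosen with earlier results of these data known, these shares are description and no test of the set. In those same 8 genes every KO library lay below every WT library, an arrangement that 14% of all tested genes showed. The log2 fold changes ran from -5.30 for Thrsp to -0.76 for Me1. Thrsp had the 9th, Fasn the 19th, Acly the 58th and Acacb the 77th most negative fold change of the 13204, while Mlxipl stood at 1278. In bulk tissue, fewer cells of a type and less RNA per cell cannot be told apart.

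**Figure D1:**
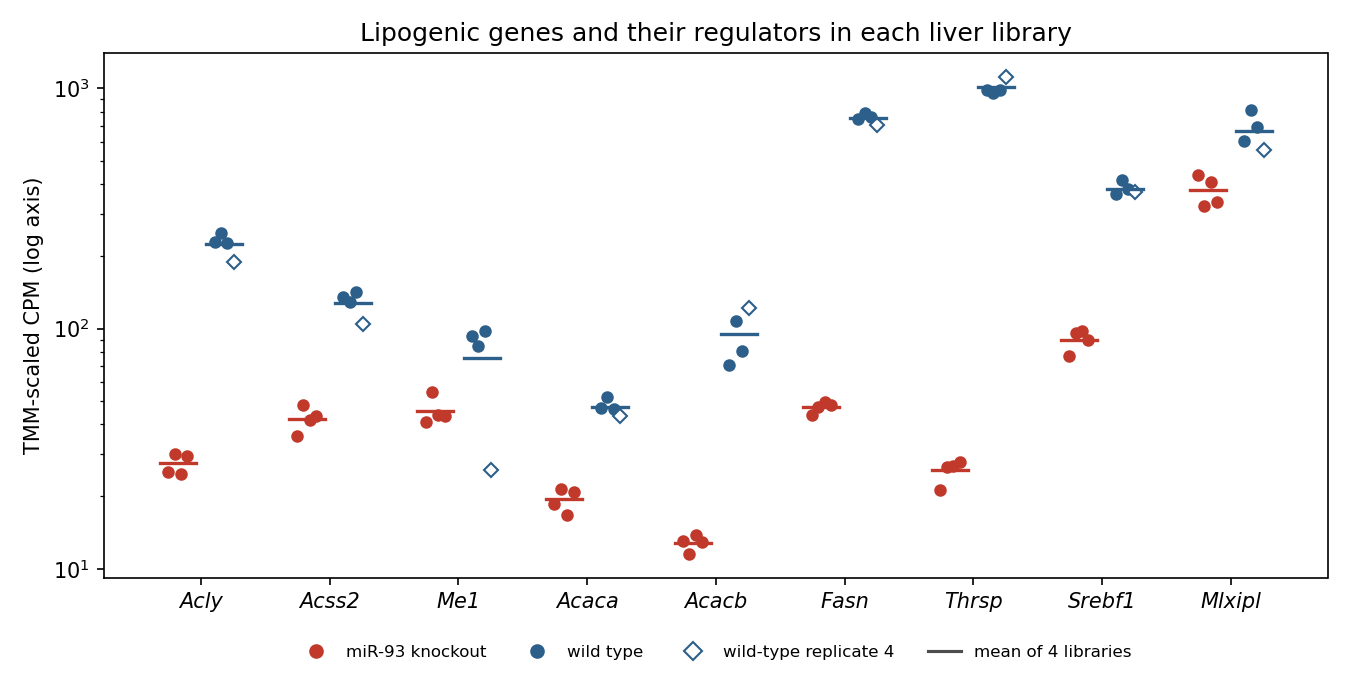
Level of each of the 9 tested genes in every library, in TMM-scaled CPM on a log axis, with the 4 KO libraries left of the 4 WT libraries, short lines at the group means and WT replicate 4 as an open diamond. KO and WT libraries separate in 8 genes, and in Me1 they overlap because WT replicate 4 has 25.9 CPM.

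The genes that supply acetyl-CoA and NADPH differed in size of change. Acly (ENSMUSG00000020917, chromosome 11) encodes ATP citrate lyase, which makes cytosolic acetyl-CoA from citrate. It had 25.2, 30.1, 24.9 and 29.5 CPM in the KO livers, against 228.7, 250.5, 227.4 and 190.1 CPM in the WT livers. The libraries within each genotype lay close together and the groups were far apart, by 8.18-fold (log2 fold change -3.03 ± 0.15 SE, adjusted p = 3.11e-07). Acss2 (ENSMUSG00000027605, chromosome 2) encodes the cytosolic enzyme that makes acetyl-CoA from acetate. It had 35.7, 48.1, 41.5 and 43.2 CPM in KO and 135.1, 128.6, 142 and 104 CPM in WT. All KO libraries were lower, by 3.03-fold (log2 fold change -1.60 ± 0.15 SE, adjusted p = 4.03e-05). Its exons overlap those of Ggt7, Gss and Acss2os on the opposite strand, and no source used here states whether counting used strand, so part of its counts may belong to them.

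Me1 (ENSMUSG00000032418, chromosome 9), the cytosolic malic enzyme and a source of NADPH, had 40.6, 54.4, 43.5 and 43.3 CPM in KO and 93.0, 84.5, 97.4 and 25.9 CPM in WT. WT replicates 1 to 3 were above every KO library and WT replicate 4, whose value rests on 46 counts, was below all of them. With all 8 libraries its log2 fold change of -0.76 ± 0.30 (SE) did not pass (adjusted p = 0.0962). Without WT replicate 4 it was -1.003 with an adjusted p of 7.64e-08, and 17.5% of all genes then tested were lower in KO. Its exons share 30 bases with the antisense gene A330041J22Rik.

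The 2 acetyl-CoA carboxylase genes were unequal. Acaca (ENSMUSG00000020532, chromosome 11) encodes the cytosolic carboxylase whose malonyl-CoA feeds synthesis. It had 18.6, 21.5, 16.7 and 20.9 CPM in KO and 46.5, 51.8, 46.4 and 43.3 CPM in WT, 2.43-fold lower in KO (log2 fold change -1.28 ± 0.13 SE, adjusted p = 7.5e-05). Acacb (ENSMUSG00000042010, chromosome 5) encodes the carboxylase at the outer mitochondrial membrane, whose malonyl-CoA restrains carnitine palmitoyltransferase 1 and so fatty acid oxidation. It had 13.03, 11.5, 13.9 and 12.9 CPM in KO and 70.3, 107.8, 80.5 and 122 CPM in WT. The groups did not overlap in either gene, and the Acacb difference was 7.34-fold (log2 fold change -2.88 ± 0.19 SE, adjusted p = 2.86e-06). The 95% interval of the log2 fold change ran from -1.57 to -0.99 for Acaca and from -3.29 to -2.46 for Acacb.

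Fasn (ENSMUSG00000025153, chromosome 11), the multifunctional enzyme that builds palmitate, had 43.7, 47.2, 49.5 and 48.0 CPM in KO and 744.4, 793.2, 762.6 and 706.8 CPM in WT. WT replicate 4, despite its mitochondrial share, had the lowest WT value but one close to the others. The difference was 16.0-fold (log2 fold change -4.00 ± 0.14 SE, adjusted p = 2.53e-08).

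Thrsp and Pnpla3 are not enzymes of the chain itself. Thrsp (ENSMUSG00000035686, chromosome 7), or Spot 14, is a small nuclear and cytosolic protein long known as a thyroid hormone and carbohydrate responsive marker of hepatic lipogenesis. It had 21.3, 26.6, 26.8 and 27.9 CPM in KO and 982.3, 953.0, 985.5 and 1117 CPM in WT. This was the largest difference among the 9 tested genes, 39.3-fold lower in KO (log2 fold change -5.30 ± 0.16 SE, adjusted p = 1.33e-08). Pnpla3 (ENSMUSG00000041653, chromosome 15) encodes a lipid droplet protein whose human gene carries a well-known steatosis risk variant. It had 6, 0, 1 and 0 counts in KO and 18, 16, 6 and 1 counts in WT, too few for the filter on low counts. A limit of 3 counts corresponds to 0.219 to 0.252 CPM in KO and to 1.69 CPM in WT replicate 4, and 3 of the KO libraries and WT replicate 4 were under 3 counts. Its exons also share bases with the predicted gene Gm49513 on the same strand. Tested without the filter, its log2 fold change was -3.37 ± 0.84 (SE, adjusted p = 0.00761), a value that depends on few counts.

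Summed over the 8 genes other than the regulators, the levels were 198.7, 239.6, 216.9 and 225.8 CPM in KO and 2303, 2372, 2343 and 2309 CPM in WT. As a share of nuclear counts, which needs no scaling factor, the same sum was 0.0294% to 0.0337% in KO and 0.328% to 0.363% in WT. WT replicate 4 had the 0.363%, so the summed share in that library was as high as in the others. Most of its 4107 summed counts came from Thrsp (1986) and Fasn (1257). In CPM, WT replicate 4 was the highest WT library for Thrsp and Acacb and the lowest for each of the other summed genes.

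Srebf1 (ENSMUSG00000020538, chromosome 11) was lower in all KO livers. It had 76.9, 95.7, 97.2 and 89.8 CPM in KO and 363.6, 414.1, 382 and 370.6 CPM in WT, 4.26-fold lower (log2 fold change -2.09 ± 0.14 SE, adjusted p = 2.77e-06). Gene counts do not separate the SREBP-1a from the SREBP-1c transcripts, nor the Mlxipl isoforms. Mlxipl (ENSMUSG00000005373, chromosome 5) had 437.7, 322.8, 407.1 and 335.4 CPM in KO and 606.6, 810.7, 691.3 and 552.7 CPM in WT. The groups did not overlap, but the difference was small, 1.77-fold (log2 fold change -0.83 ± 0.17 SE, adjusted p = 0.0056), and did not pass a test for a change above 1.5-fold (adjusted p = 0.253). On the opposite strand, Rai1 overlaps exons of Srebf1 by 109 bases and the predicted gene Gm43500 overlaps those of Mlxipl by 235. The miRNA gene Mir6922 overlaps Srebf1 by 66 bases on the same strand, which strand-aware counting would not separate.

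**Figure D2:**
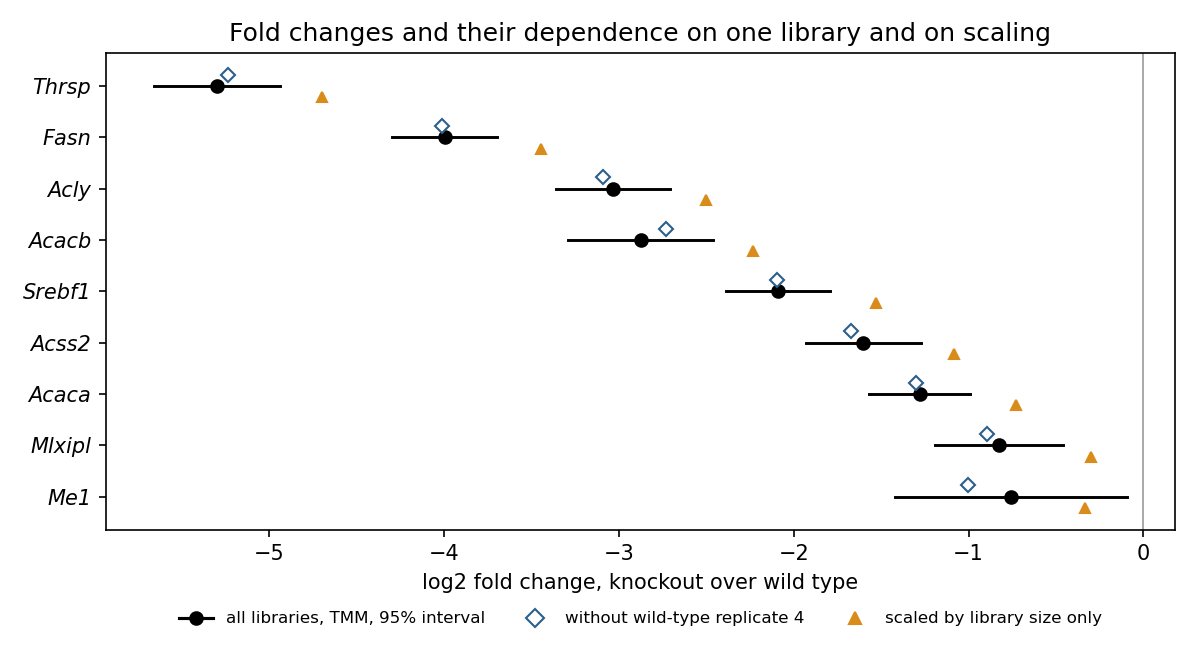
Log2 fold change of KO over WT for the 9 tested genes with 95% intervals; diamonds leave out WT replicate 4 and triangles scale by library size alone. Intervals lie below 0 for all 9 genes, from -5.66 to -4.94 for Thrsp down to -1.42 to -0.10 for Me1, which did not pass after adjustment.

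The scaling mattered for the small changes. When libraries were scaled by total counts alone, the median gene moved to 0.54 and 5 of the 9 genes were called lower. Acss2 (-1.08, adjusted p = 0.141), Acaca (-0.73, adjusted p = 0.238) and Mlxipl (-0.30, adjusted p = 0.639) were then not called, and Srebf1 was (-1.53, adjusted p = 0.0457).

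The order of the levels also differed between genotypes. Per kilobase of annotated transcript, on the CPM scale, KO livers ran Mlxipl 103.7 ± 15.3, Srebf1 20.9 ± 2.15, Thrsp 20.1 ± 2.34, Acss2 14.4 ± 1.74, Me1 13.8 ± 1.86, Acly 6.24 ± 0.633, Fasn 4.69 ± 0.245, Acaca 2.04 ± 0.23, Acacb 1.46 ± 0.111 and Pnpla3 0.107 ± 0.179 (SD, n = 4). WT livers ran Thrsp 790.4 ± 57.2, Mlxipl 183.7 ± 31.0, Srebf1 89.0 ± 5.20, Fasn 74.8 ± 3.59, Acly 51.0 ± 5.71, Acss2 43.5 ± 5.64, Me1 22.9 ± 10.1, Acacb 10.8 ± 2.72, Acaca 4.94 ± 0.372 and Pnpla3 1.13 ± 0.669 (SD, n = 4). Among neighbours, Srebf1 with Thrsp and Acss2 with Me1 overlapped in KO, and Acly with Acss2 and Me1 with Acacb overlapped in WT. Thrsp had rank 3 in KO and rank 1 in WT, and Fasn had rank 7 in KO and rank 4 in WT.

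SREBP-1 and ChREBP act at short promoter motifs, so promoter windows of the regulators and of the 2 most changed tested members are shown. Srebf1 has 3 windows and Mlxipl 2, and the one printed for each was chosen for the matches it holds. Each runs from 250 bases before to 50 after a gene start, 5′ to 3′ on the gene's strand, from RefSeq on GRCm38.p6. Capitals mark matches on either strand to TCACNCCAC (a sterol regulatory element), GGTTACTNG (one repeat of an LXR element), CACGTG (an E-box, part of the element bound by ChREBP) or CCAAT (bound by NF-Y). All 10 genes had windows, 14 in all.
Srebf1, chr11:60210422-60210721, minus strand: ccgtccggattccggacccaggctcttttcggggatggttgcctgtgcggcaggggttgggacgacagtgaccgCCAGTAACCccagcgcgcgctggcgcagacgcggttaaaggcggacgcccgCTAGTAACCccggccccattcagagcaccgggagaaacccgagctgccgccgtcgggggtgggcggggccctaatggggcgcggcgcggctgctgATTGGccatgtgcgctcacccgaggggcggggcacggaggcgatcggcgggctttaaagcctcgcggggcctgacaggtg
Mlxipl, chr5:135089640-135089939, plus strand: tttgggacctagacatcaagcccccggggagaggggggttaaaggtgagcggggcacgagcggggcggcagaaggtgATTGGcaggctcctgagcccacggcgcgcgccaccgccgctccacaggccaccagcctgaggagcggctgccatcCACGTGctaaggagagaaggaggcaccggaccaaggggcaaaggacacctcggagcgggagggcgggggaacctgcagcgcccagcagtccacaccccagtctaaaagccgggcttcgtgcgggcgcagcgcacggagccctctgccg
Fasn, chr11:120824498-120824797, minus strand: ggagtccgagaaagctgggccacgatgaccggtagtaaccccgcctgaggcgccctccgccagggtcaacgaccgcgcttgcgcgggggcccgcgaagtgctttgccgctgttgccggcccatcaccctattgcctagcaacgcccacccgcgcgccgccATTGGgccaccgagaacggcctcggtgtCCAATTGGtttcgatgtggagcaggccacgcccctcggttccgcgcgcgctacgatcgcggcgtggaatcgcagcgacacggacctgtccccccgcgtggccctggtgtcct
Thrsp, chr7:97417501-97417800, minus strand: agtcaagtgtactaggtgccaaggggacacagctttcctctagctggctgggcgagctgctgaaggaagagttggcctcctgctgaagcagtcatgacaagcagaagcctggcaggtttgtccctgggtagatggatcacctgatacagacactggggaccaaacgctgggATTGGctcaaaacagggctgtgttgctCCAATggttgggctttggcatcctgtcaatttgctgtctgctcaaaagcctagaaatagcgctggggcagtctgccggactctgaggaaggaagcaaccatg
The Srebf1 window held GGTTACTNG at 2 places, -176 to -168 and -125 to -117 from the start, and 0.6% of 32851 windows of this length held it at least once. The other 2 Srebf1 windows had 0 matches to it. The letters of that motif were taken from the known Srebf1 element, so this match is no independent evidence. The Mlxipl window held an E-box at -98 to -93, which 7.15% of windows held and the other Mlxipl window did not. Fasn held CCAAT at 3 places, the last 2 overlapping each other, and Thrsp at 2, and 37.4% of windows held it. The sterol regulatory element was found in 1 of the 14 windows, another start of Mlxipl, against 1.24% of all windows. These matches are letters in a 300-base window, and elements elsewhere were not searched.

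Whether targets changed as much as their regulators was tested as the log2 ratio of each gene to Srebf1 or Mlxipl within a library, in a limma fit over all genes. A ratio within a library depends little on the scaling between libraries. Thrsp to Srebf1 was -1.84, -1.84, -1.85 and -1.68 in KO and 1.43, 1.20, 1.37 and 1.59 in WT, a difference of -3.20 ± 0.14 (log2, SE; adjusted p = 8.01e-08). Fasn to Srebf1 was -0.81, -1.02, -0.97 and -0.90 in KO and 1.03, 0.94, 1.00 and 0.93 in WT, a difference of -1.90 ± 0.13 (adjusted p = 2.78e-07). Both exceeded Srebf1 in every WT library and were under it in every KO library, in CPM not corrected for length.

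Acly (-0.93 ± 0.14, adjusted p = 9.63e-05) and Acacb (-0.75 ± 0.19, adjusted p = 0.00338) also changed more than Srebf1. So 4 of the 7 tested targets were lower relative to Srebf1, as were 0.265% of all tested genes. The other 3 changed less than Srebf1, by 0.50 ± 0.15 for Acss2 (adjusted p = 0.00684), 0.82 ± 0.15 for Acaca (adjusted p = 3.52e-04) and 1.53 ± 0.37 for Me1 (adjusted p = 0.00214). Me1 to Srebf1 was -3.83 in WT replicate 4 and -2.29 to -1.965 in the other WT libraries. Without WT replicate 4 the Me1 difference was 1.09. Of all tested genes 95.9% were higher relative to Srebf1, which is what a gene without change of its own shows.

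Relative to Mlxipl, 5 of the 7 targets were lower and 0 higher, against 1.32% and 56.9% of all tested genes. The differences were -4.47 ± 0.24 for Thrsp, -3.17 ± 0.20 for Fasn, -2.20 ± 0.22 for Acly, -2.02 ± 0.24 for Acacb and -0.77 ± 0.23 for Acss2 (adjusted p from 4.78e-08 to 0.0117). Acaca (-0.45, 95% interval -0.92 to 0.03, adjusted p = 0.094) and Me1 (0.26, 95% interval -0.48 to 1.00, adjusted p = 0.516) did not pass. The Me1 ratio was -0.11 without WT replicate 4 (adjusted p = 0.641). The log2 ratio of Srebf1 to Mlxipl was itself lower in KO than in WT, with a difference of -1.27 ± 0.22 (adjusted p = 5.19e-04). A correlation between regulators and targets across libraries was not computed, since the genotypes form separate clusters of 4.

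**Figure D3:**
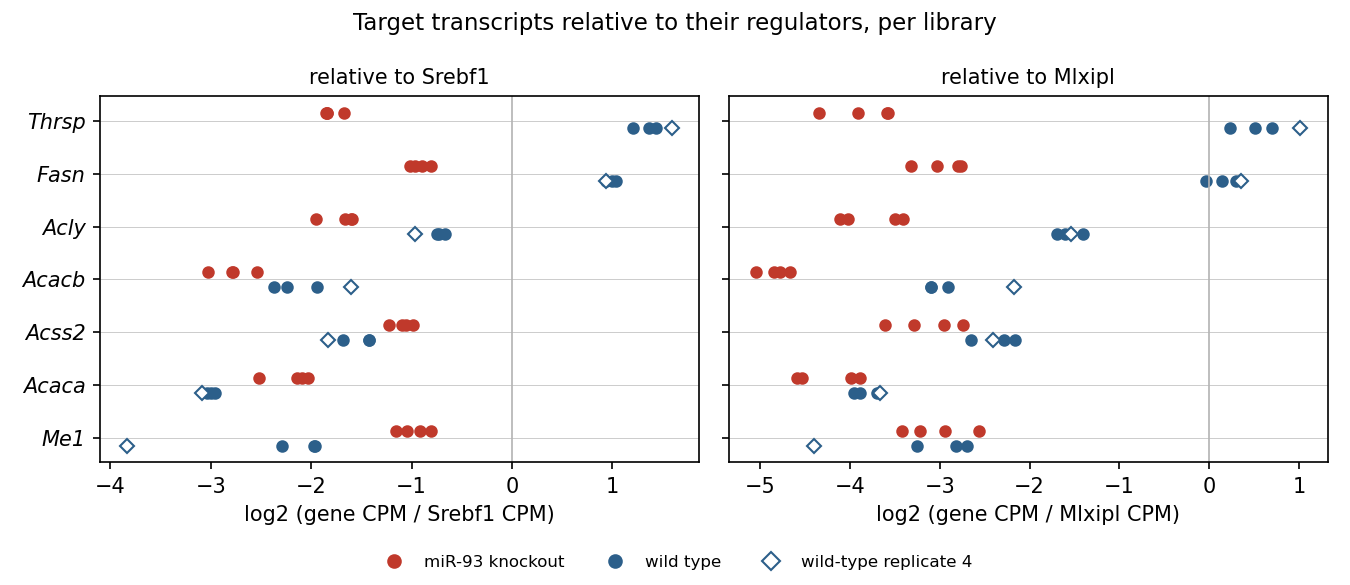
Log2 ratio of each target to Srebf1 and to Mlxipl in every library, KO above WT. Relative to Srebf1 the groups separate for all 7 targets, with Thrsp, Fasn, Acly and Acacb lower in KO and Acss2, Acaca and Me1 higher; relative to Mlxipl, Acaca and Me1 overlap.

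Other genes of both pathways were read from lists, which were also chosen with earlier results of these data known. Among all tested genes, 10.7% were lower and 10.4% higher. Of 14 other SREBP-1 targets, 10 were lower in KO, 0 higher and 4 not called, with a median log2 fold change of -0.98. The most significant were Scd1, the stearoyl-CoA desaturase (128 ± 9.38 CPM in KO and 5971 ± 1399 in WT, log2 fold change -5.54 ± 0.22, adjusted p = 5.07e-08), Aacs (-2.60 ± 0.13, adjusted p = 4.43e-07), the fatty acid elongase Elovl6 (-4.89 ± 0.37, adjusted p = 8.13e-06, and -4.38 without WT replicate 4, which had the highest WT level at 656.2 CPM) and Pgd, an NADPH-forming enzyme of the pentose phosphate pathway (-1.30 ± 0.15, adjusted p = 1.46e-04). Gpam, Fads2, Dgat2 and G6pdx, named here after their values were seen, were not called. Without any 1 of the other 7 libraries 8 of the 14 were lower, and without WT replicate 4 12 were, where 17.5% of all tested genes were lower.

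Of 14 ChREBP targets, 8 were lower, 4 higher and 2 not called, with a median of -0.73. The shares over all tested genes were 10.7% lower and 10.4% higher. Pklr, the liver pyruvate kinase (61.4 ± 6.76 CPM in KO and 293.9 ± 33.8 in WT, -2.26 ± 0.15, adjusted p = 2.86e-06), and G6pc, glucose-6-phosphatase (77.3 ± 8.42 CPM in KO and 348.4 ± 16.8 in WT, -2.17 ± 0.14, adjusted p = 2.11e-06), fell. Txnip, a glucose-responsive thioredoxin inhibitor, rose (104.5 ± 3.29 CPM in KO and 31.1 ± 3.35 in WT, 1.74 ± 0.13, adjusted p = 6.36e-06). Fgf21, a hepatic hormone, rose to 8.32 ± 1.42 CPM in KO, against 0.303 ± 0.259 CPM in WT with WT replicate 4 at 0 counts (adjusted p = 2.17e-05). The other 2 higher genes, Rgs16 and Gpd1, were named after their values were seen.

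Of 14 genes of SREBP processing and LXR, 2 were higher, 1 lower and 11 not called, with a median of -0.14, a share called near that of all tested genes (10.7% lower and 10.4% higher). Insig1, an endoplasmic reticulum retention protein and itself an SREBP target, had 72.3 ± 6.85 CPM in KO and 219.1 ± 54.4 in WT (-1.61 ± 0.19, adjusted p = 2.33e-04). Its relative Insig2 had 57.1 ± 9.57 CPM in KO and 28.1 ± 8.24 in WT (0.99 ± 0.21, adjusted p = 0.00652). Rxra, the partner receptor of LXR, was higher (0.68 ± 0.13, adjusted p = 0.00376), and Fbxw7, a ubiquitin ligase subunit, had -0.49 ± 0.21 (adjusted p = 0.124).

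Of 13 cofactors, only Mlxip, a close relative of Mlxipl, was called (0.61 ± 0.16, adjusted p = 0.0214), and that call was lost when libraries were thinned to equal nuclear depth (adjusted p = 0.639) and without KO replicate 1, 3 or 4 or WT replicate 2 (adjusted p from 0.0564 to 0.0719). The cofactor median was -0.14, and of all tested genes 10.7% were lower and 10.4% higher. Pparg (-0.97 ± 0.33, adjusted p = 0.0587) and Bhlhe40 (-0.46 ± 0.17, adjusted p = 0.075) were not called with all libraries and were without WT replicate 4 (adjusted p = 6.88e-04 and 3.85e-04). Nfyc had -0.38 ± 0.17 (adjusted p = 0.13).

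Paralogues and mitochondrial or opposing counterparts of the 10 genes showed no common direction. Of 13 listed, 10 were tested, 2 were higher and 2 lower, with a median of 0.08, beside 10.4% higher and 10.7% lower of all tested genes. Mid1ip1, a paralogue of Thrsp that is also among the SREBP-1 targets, was lower (-1.65 ± 0.33, adjusted p = 0.00521), with overlapping groups. Mcat, of mitochondrial fatty acid synthesis, was higher (0.67 ± 0.18, adjusted p = 0.0217) and Acss3 lower (-0.53 ± 0.15, adjusted p = 0.032). The Mcat call was lost without KO replicate 2 or 4 or WT replicate 2 (adjusted p from 0.0596 to 0.0802), and the Acss3 call without any single library other than WT replicate 4 (adjusted p from 0.0577 to 0.101). Mlxip, already described, was the other gene called higher. Mlycd, the malonyl-CoA decarboxylase, did not pass (0.43 ± 0.15, adjusted p = 0.065). Neither did Pnpla2, the adipose triglyceride lipase (0.43 ± 0.17, adjusted p = 0.0863), nor Me2 (-0.72 ± 0.47, adjusted p = 0.303). Without WT replicate 4, Pnpla2 (0.61, adjusted p = 3.53e-05) and Mlycd (0.35, adjusted p = 0.0116) passed. Mlycd also passed without WT replicate 3 (adjusted p = 0.0437).

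**Figure D4:**
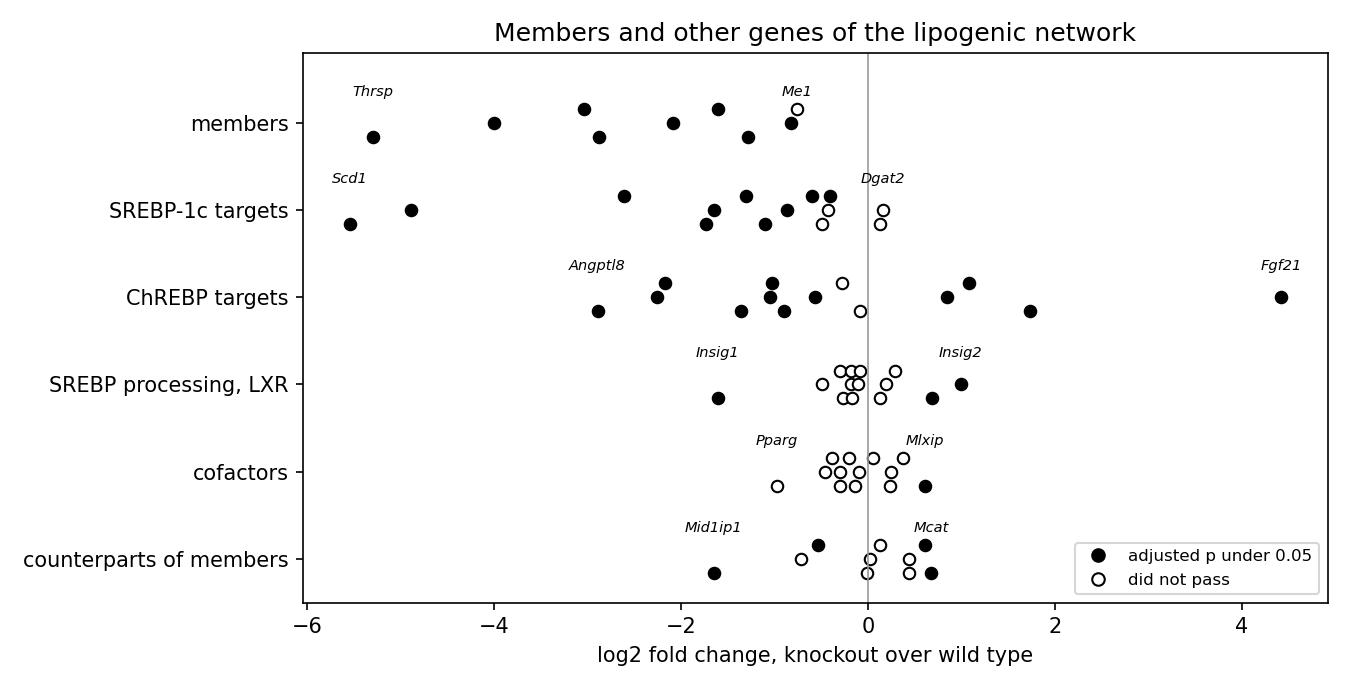
Log2 fold change of KO over WT for each tested gene of the lists, filled where the adjusted p is below 0.05; the leftmost and rightmost genes are labelled. The SREBP-1 targets lie mostly left of 0, the ChREBP targets on both sides with a median of -0.73, and the processing, cofactor and counterpart lists around 0.

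Cell type markers were read beside these results, and their calls stand beside 10.7% lower and 10.4% higher of all tested genes. The hepatocyte list had 2 of 9 genes higher and 2 lower, with summed levels of 46450 to 52290 CPM in KO and 47180 to 67060 CPM in WT. WT replicate 4 had the 47180 CPM, and the other WT libraries were all above the KO range. The 6 adipocyte markers had summed levels of 0.219 to 0.609 CPM in KO and 0.758 to 6.75 CPM in WT. The groups did not overlap in CPM, but none of the 6 had more than 8 counts in any library. The 6.75 CPM was that of WT replicate 4, where Retn had 8 counts and 3 counts correspond to 1.69 CPM. Lep had 0 counts in every library, and Adipoq had 0 counts in every KO library and 0 to 4 counts in the WT libraries. Of 10 Kupffer cell markers 6 were higher, with sums of 166.5 to 203.1 CPM in KO and 64.0 to 216.5 CPM in WT. That 216.5 CPM came from WT replicate 4, and the other WT libraries were all below the KO range. Without WT replicate 4, 9 Kupffer cell markers were higher, as were 2446 of all 13777 genes then tested. Of 8 endothelial markers 5 were higher, with sums of 138.3 to 260.1 CPM in KO and 90.4 to 187.8 CPM in WT. Again only WT replicate 4, with the 187.8 CPM and Stab1 at 118.6 CPM, reached into the KO range, and the other WT libraries were below it. All 5 B cell markers were lower, with sums of 2.703 to 8.22 CPM in KO and 23.5 to 55.8 CPM in WT, as were 2 of 4 tested T cell markers, with sums of 3.73 to 5.86 CPM in KO and 6.87 to 12.9 CPM in WT. Of 2 tested cholangiocyte markers 1 was higher, with sums over the list of 31.4 to 33.0 CPM in KO and 10.1 to 20.3 CPM in WT. Summed stellate markers were 89.7 to 96.2 CPM in KO and 76.7 to 198.5 CPM in WT, with 2 of 6 lower. The 198.5 CPM was that of WT replicate 4, and the other WT libraries lay close to the KO range, on both sides of it and within it. Neutrophil markers, with Ly6g and Mpo at 0, gave no call among 1 tested, with sums of 3.07 to 4.21 CPM in KO and 1.51 to 4.50 CPM in WT. Here too the highest WT sum was that of WT replicate 4, from 8 counts of S100a8, and the other WT libraries were below the KO range. The part of these cell types in the lipogenic result was not tested.

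Genes with a pattern like that of the 7 tested target genes were sought among tested protein-coding genes. The 10 genes described here and genes with names of the Gm or Rik type were left out. The rest were ranked by Pearson r over the 8 libraries with the mean standardized profile of those 7 target genes. The highest were Nrep (r = 0.999), Cish (0.997), Aox3 (0.997), Pde4b (0.995) and Hectd2 (0.995). These r mostly express the shared separation of genotypes in the same 8 libraries. Nrep had 5.80 ± 0.45 CPM in KO and 45.0 ± 8.67 CPM in WT, a log2 fold change of -2.98. The others ran from -2.92 for Hectd2 to -1.04 for Aox3.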

How the data were processed

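Liver RNA from 4 KO and 4 WT samples was sequenced on standard Illumina libraries. The deposited values are raw counts of reads per Ensembl gene; the submitters' processing notes name cutadapt 4.2 (a read trimmer), STAR 2.7.10a (an aligner) and the mm39 build, and the counting tool, strand setting and treatment of multiply mapped reads are not given in the sources used here. Gene names were matched through GENCODE M21, and 52073 of 56748 identifiers had a symbol. Rows with no symbol took 0.332% to 1.57% of counts and were kept. Groups were taken from the sample titles.

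Counts were tested in R 4.3.3 with edgeR 4.0.16 (filterByExpr, TMM, robust quasi-likelihood fit, genotype as the only term), and target to regulator ratios with limma 3.58.1 (log2 CPM, prior count 2, trended and robust). Alternatives were DESeq2 1.42.0, limma-voom with quality weights, other scalings and filters, mitochondrial genes left out, a minimum fold of 1.5, the replicate number as a block, each library left out, and, added after seeing the data, libraries thinned to equal nuclear depth. The tests were tested on simulated data first. Figures were drawn with matplotlib 3.10.9.

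The 10 genes and the lists were chosen with earlier results of these data known. Named genes are the 10, up to 4 tested genes of each other list with the smallest p, up to 3 uncalled counterparts and the 5 genes most alike in pattern, except where the text says otherwise. The uncalled ChREBP targets are not reported by name here. No 2 libraries of the same genotype agreed within sampling noise, and pairs across genotypes were not compared. The SE of each edgeR fold change was derived from the fold change and its F statistic, and its 95% interval from that SE. Intervals cover the spread between libraries, and limits from 3 counts cover counting error only.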

Additional observations from a re-analysis of the deposited data

Results flagged for a closer look

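Of 54 groups of 4 values examined, 3 held a library set apart from the other 3, and chance flags about 1 group in 20. Pnpla3 had 0.489 CPM in KO replicate 1, against 0 to 0.0731 CPM in the other KO libraries, a level that rests on 6 counts. In WT replicate 4, 14287 genes were detected, fewer than the 18412 to 19131 of WT replicates 1 to 3. The log2 ratio of Thrsp to Srebf1 was -1.68 in KO replicate 4 and -1.85 to -1.84 in the other KO libraries, a small gap beside the WT values of 1.20 to 1.59.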

How the results depend on the processing

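Fold changes of the 9 tested genes kept direction and call in 165 of 171 alternatives, the ratios in 167 of 168 and the other named genes in 456 of 510. Scaling by library size alone gave -1.08 for Acss2, -0.73 for Acaca and -0.30 for Mlxipl, and called 5 of the 9 genes. It called 124 genes lower and 561 higher, with 3 SREBP-1 targets and 3 ChREBP targets lower. The processing, cofactor and counterpart lists then had 0 genes called. Fbxw7 (0.12), Bhlhe40 (0.046), Nfyc (0.25) and Acss3 (0.024) changed sign. Insig1, Rxra, Insig2, Pgd and Mid1ip1 were not called (adjusted p from 0.0727 to 0.204). Among the genes most alike in pattern, Cish, Aox3 and Pde4b were not called (adjusted p = 0.0543, 0.412 and 0.0734). A minimum fold of 1.5 left Mlxipl uncalled at -0.83 and gave 350 lower and 317 higher genes, 6 SREBP-1 targets lower, 1 processing gene, 0 cofactors and 1 counterpart. Voom with quality weights called Me1 (-0.97), 2552 genes lower and 2432 higher, 4 cofactors and 7 counterparts, and the DESeq2 test called 3 cofactors. Same-numbered libraries of the 2 genotypes did not deviate together (r -0.193 to -0.0322) and were not treated as pairs; with the replicate block 8 of the 9 genes stayed lower, and 624 genes were lower and 643 higher, with 6 SREBP-1 targets, 0 cofactors and 1 counterpart. Thinning to equal nuclear depth left 833 genes lower and 739 higher of 9074 tested, 8 of the 9 genes lower, 0 cofactors and 1 counterpart. Leaving out each library gave 728 to 2407 genes lower and 760 to 2446 higher, 8 to 9 of the 9 genes lower, Me1 from -1.003 to -0.61, 8 to 12 SREBP-1 targets lower, 0 to 3 cofactors, 1 to 6 counterparts and an Me1 to Mlxipl ratio of -0.11 to 0.46; WT replicate 4 gave the 2407, the 2446, the -1.003 and the -0.11, while leaving out KO replicate 2, 3 or 4 or WT replicate 2 gave 728 to 938 lower and 760 to 872 higher. Fbxw7 was called without WT replicate 1 (adjusted p = 0.0414) and Mlycd without WT replicate 3 (0.0437) or 4 (0.0116). The cause of these shifts was not tested. WT replicate 4 has the fewest nuclear counts and limits low genes most.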
